A study of Mus musculus with 4 samples.

Results

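Cadherins and protocadherins were examined in cultured mouse cardiac fibroblasts with and without overexpression of Nr4a3, a nuclear receptor and transcription factor. The genes were taken by symbol: every row of the count table named Cdh or Pcdh followed by a number, or Pcdha, Pcdhb or Pcdhg followed by its isoform. This gave 92 of 55359 rows, made up of 23 cadherins, 11 single protocadherins and the protocadherin clusters alpha (14 rows), beta (22) and gamma (22). The symbol Pcdha11 stood on 2 rows with different Ensembl identifiers, and 61 of the 92 genes lie on chromosome 18.

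The cells were primary cultures from wild-type newborn mouse hearts (age label P1-P3), and both groups carried an overexpression treatment, either the control (OECtrl) or Nr4a3 (OENr4a3). Each group had 2 libraries. The study asks how Nr4a3 overexpression acts on reprogramming of these cells towards cardiomyocytes. Titles and design text differ on the time, with day 10 in the former and reprogramming day 7 in the latter. The labels used here name no vector, promoter or reprogramming factors. They also do not state whether replicates are separate cultures, and a p-value here therefore covers the spread between libraries, which may be technical.

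Cadherins are membrane proteins that join cells through calcium-dependent contacts of their extracellular repeats. Classical cadherins bind beta-catenin and p120-catenin with their cytoplasmic tail, and alpha-catenin links that complex to actin; in the heart N-cadherin (Cdh2) joins cardiomyocytes at the intercalated disc, and cadherin-11 (Cdh11) is a cadherin of fibroblasts. Protocadherins lack that catenin-binding tail. The clustered ones are best known from neurons: each variable exon has its own promoter, and in the alpha and gamma clusters the variable exons are spliced to constant exons that all genes of the cluster share.

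Library totals ran from 14275501 to 18441428 counts, at which 0 reads allowed up to 0.165 to 0.208 CPM (counts scaled to library size, 3 reads, counting error only). Nr4a3 itself measured 2.49 and 1.86 CPM in OECtrl and 175.4 and 177.8 CPM in OENr4a3. All 9 fibroblast markers passed the filter on low counts, and their summed level, most of it from collagens and Postn, was 17770 to 19130 CPM in the 4 libraries; 3 of the 9 rose (Col1a1, Pdgfra and Ddr2) and 2 fell (Tcf21 and Thy1). Macrophage markers summed to 922.1 and 938.0 CPM in OECtrl and 602.5 and 622.1 CPM in OENr4a3, with 3 of 7 lower. Most of that sum was Lyz2, at means of 810.7 and 522.4 CPM. Pericyte or smooth muscle markers summed to 2159 and 2229 against 1618 and 1652 CPM, and nearly all of it was Acta2 (means of 2159 and 1581 CPM). The genes of this list went both ways, with 2 of 7 higher (Cspg4 and Abcc9) and 2 lower (Acta2 and Rgs5). All marker counts in this paragraph stand beside 12.0% of all tested genes called higher and 11.0% called lower. Of 8 cardiomyocyte markers, 2 were tested and the others were below the filter. Myh6 rose, at 1.31 and 0.0598 CPM in OECtrl (19 and 1 reads) against 5.45 and 2.95 CPM in OENr4a3. Nppa did not pass (log2 fold change -0.0035, adjusted p = 0.997). The part of these shifts in the results on cadherins was not tested. Of the 92 genes, 55 passed the filter, including all 22 of the gamma cluster. In 9 of the 55, both OENr4a3 libraries but not both OECtrl libraries reached the filter's cutoff (0.576 CPM). Such a gene is said below to pass through OENr4a3 alone, although an OECtrl library may have reached the cutoff as well. A count over the 55 is therefore not a count over the family.

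Of the 55 tested genes, 18 rose and 2 fell in OENr4a3 (edgeR, Benjamini-Hochberg adjusted p under 0.05 over all tested genes). Over all 15029 tested genes 23.0% were called, 12.0% as higher and 11.0% as lower, and 11 of the 18 rises were in the gamma cluster. Among the 18, Pcdh12, Pcdhga10, Pcdhgb1 and Pcdhgb8 had passed the filter through OENr4a3 alone. The median log2 fold change was 0.61 over the 55 genes and -0.01 over all tested genes. Longer genes were higher in OENr4a3 across the transcriptome (Spearman's rho of 0.42 between log2 fold change and exonic length across 15029 genes, which are not independent), and the 55 genes had a median exonic length of 5225 bases against 4126 over all tested genes. With that trend removed from each library, 16 rose and 5 fell, against a background of 20.3% called, 10.1% as higher and 10.2% as lower. Fits with 1 library left out are also cited below. They leave 1 library in a group, and the spread is then taken from the other group. Replicate spread differed between the groups (chi-square per degree of freedom 15.5 in OECtrl and 2.55 in OENr4a3). A call gained or lost in such a fit therefore does not show that a gene depends on that library.

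The promoter windows of 3 single protocadherins were read from RefSeq (build GRCm38.p6, 250 bases before to 50 after the start): Pcdh18 and Pcdh9, which rose, and the likewise abundant Pcdh7, which did not pass the test. They were searched on both strands for AAAGGTCA (reverse complement TGACCTTT), the response element bound by NR4A receptors, and for the E-box CACCTG (reverse complement CAGGTG), bound by Snail and ZEB repressors. Capitals mark a match.
Pcdh18, chr3:49757267-49757566, minus strand: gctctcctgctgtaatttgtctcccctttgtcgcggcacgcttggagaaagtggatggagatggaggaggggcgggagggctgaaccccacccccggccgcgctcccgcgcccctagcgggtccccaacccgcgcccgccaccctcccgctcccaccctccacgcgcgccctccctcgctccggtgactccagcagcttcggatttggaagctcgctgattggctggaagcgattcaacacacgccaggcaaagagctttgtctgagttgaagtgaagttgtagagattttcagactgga
Pcdh9, chr14:93890630-93890929, minus strand: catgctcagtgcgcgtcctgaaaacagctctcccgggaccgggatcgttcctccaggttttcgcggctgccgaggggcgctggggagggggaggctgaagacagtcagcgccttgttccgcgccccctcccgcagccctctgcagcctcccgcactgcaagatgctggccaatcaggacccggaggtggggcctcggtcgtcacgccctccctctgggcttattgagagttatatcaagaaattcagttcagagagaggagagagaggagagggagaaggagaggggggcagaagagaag
Pcdh7, chr5:57717831-57718130, plus strand: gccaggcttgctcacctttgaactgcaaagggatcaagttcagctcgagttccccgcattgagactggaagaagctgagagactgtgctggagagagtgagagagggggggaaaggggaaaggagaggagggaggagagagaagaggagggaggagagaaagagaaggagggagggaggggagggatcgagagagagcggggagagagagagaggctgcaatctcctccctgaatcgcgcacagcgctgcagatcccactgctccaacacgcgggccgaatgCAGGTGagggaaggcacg
The NR4A element was in 0 of the 25 windows of 22 member genes with an entry, and in 1.51% of all 32851 windows. At so low a share, 0 of 25 says little. The cadherins that passed the test (Cdh11, Cdh13 and Cdh3) had no window to search. The E-box was in 5 of the 25, which belong to Cdh7, Pcdh15 and Pcdh7, and in 20.2% of all windows. The only capitals are therefore the E-box near the end of the Pcdh7 window; a match is not a binding site, and the absence of these letters says nothing about the factor beyond this window.

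Cdh11 and Cdh2, the most abundant members, changed places. Per kilobase of exonic length, Cdh11 stood at 42.4 ± 4.34 CPM in OECtrl and 30.6 ± 1.65 in OENr4a3, and Cdh2 at 36.9 ± 0.365 and 44.0 ± 0.699 (SD, n = 2 each). By full exonic length Cdh11 was thus first and Cdh2 second of the 92 genes in OECtrl, and the order was turned in OENr4a3. The ratio of Cdh11 to Cdh2 within a library was 1.24 and 1.06 in OECtrl and 0.678 and 0.715 in OENr4a3. These ratios did not overlap, but an exact permutation test of 2 libraries against 2 cannot go below p = 0.333 (two-sided), the value it gave.

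Cdh11, also called OB-cadherin, measured 405.2 and 350.6 CPM in OECtrl and 262.4 and 283.2 CPM in OENr4a3. Both OENr4a3 libraries lay below both OECtrl libraries, and the fall passed the test (log2 fold change -0.47 ± 0.106 SE, adjusted p = 0.0155). The fits without OENr4a3 replicate 1 or 2 did not make the call, at log2 fold changes of -0.41 and -0.52. With the length trend removed the fall was -0.70 (adjusted p = 0.000174). Cdh11 (ENSMUSG00000031673) lies on the minus strand at chr8:102632095-102785642 in GRCm38, and its exons share no base with exons of another gene on that strand.

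Cdh2 (ENSMUSG00000024304), N-cadherin, measured 295.6 and 299.8 CPM in OECtrl and 350.8 and 358.7 CPM in OENr4a3. Its groups did not overlap, yet it missed the threshold (log2 fold change 0.25 with 95% bounds of 0.0484 and 0.457, adjusted p = 0.0715). Without OECtrl replicate 1 or 2 its log2 fold change was 0.25 or 0.26. With the length trend removed it stood at 0.05 (adjusted p = 0.706). Cdh2 overlaps 1 annotated gene on the other strand. Summed over all 23 cadherins, the level was 783.2 and 716.4 CPM in OECtrl and 730.2 and 762.0 CPM in OENr4a3, and these ranges overlapped.

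Cdh13, T-cadherin, was the 1 cadherin that rose. It is held to the membrane by a lipid anchor, has no cytoplasmic tail, and binds adiponectin and low-density lipoprotein. It measured 39.9 and 34.0 CPM in OECtrl and 90.6 and 93.1 CPM in OENr4a3. The groups were far apart relative to their spread (2.49-fold, log2 fold change 1.32 ± 0.117 SE, adjusted p = 0.000215), and the call held in all 12 alternative fits, at 1.01 to 1.44. Cdh13 (ENSMUSG00000031841) spans chr8:118283733-119324921 on the plus strand of GRCm38 and contains or overlaps 5 other annotated genes, 4 of them on the other strand, so some of its reads may not be its own if strand was not used in counting.

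Cdh3, P-cadherin, was the other cadherin that fell. P-cadherin is a classical cadherin of epithelia. It measured 18.1 and 14.8 CPM in OECtrl and 6.45 and 5.68 CPM in OENr4a3, with no overlap (log2 fold change -1.44 ± 0.173 SE, adjusted p = 0.000991), and the call held in all 12 alternative fits. Cdh3 (ENSMUSG00000061048) lies at chr8:106510891-106557297 on the plus strand. Epithelial and mesothelial markers moved with it: of 9 listed, 7 were tested, 5 fell and none rose, among them Msln, mesothelin, from 263.3 to 109.6 CPM and Krt8 from 9.63 to 1.82 CPM. Over all tested genes 11.0% were called lower. The summed level of the marker list was 681.1 and 682.0 CPM in OECtrl and 323.8 and 309.4 CPM in OENr4a3. Of its defining genes, Epcam had 0 reads in every library, Cdh1 is given next, and Wt1 stood at 33.2 and 37.4 CPM (log2 fold change 0.17, adjusted p = 0.344). The part of these cells in the fall of Cdh3 was not tested, and in bulk RNA fewer cells of a type and less RNA per cell cannot be told apart.

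Cdh1, E-cadherin, the main cadherin of epithelia, was below the filter: the OECtrl libraries held 6 and 1 reads and both OENr4a3 libraries held 0. Of the transcription factors listed as repressors of Cdh1, 7 of 8 were tested, 4 rose and none fell, beside 12.0% of all tested genes called higher; with the length trend removed 1 of the 7 rose, beside 10.1%. Snai2 (Slug) rose by a log2 fold change of 0.49, from 27.4 ± 3.26 to 38.6 ± 5.71 CPM (adjusted p = 0.0379). Zeb1 rose from 90.9 ± 11.2 to 130.7 ± 10.4 (0.52, adjusted p = 0.0161) and Zeb2 from 159.7 ± 24.3 to 227.5 ± 11.1 (0.51, adjusted p = 0.018). Tcf4 rose from 112 ± 1.11 to 182.1 ± 5.94 (0.70, adjusted p = 0.00211). Zeb2 had the highest CPM of the list, but per kilobase of exonic length Snai1 stood higher in OECtrl (15.1 against 7.91). Removing the length trend ended the calls of Zeb1 (adjusted p = 0.0681), Zeb2 (0.969) and Tcf4 (0.697) and left Snai2 at 0.73 (0.0027). Without OENr4a3 replicate 1 or 2 the calls of Snai2 (adjusted p = 0.0548 and 0.418, and 0.084 with no filter on low counts), Zeb1 (0.0659 and 0.23) and Zeb2 (0.0903 and 0.192) were lost.

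Cdh5, VE-cadherin of endothelial junctions, measured 14.1 and 10.8 CPM in OECtrl and 11.4 and 13.3 CPM in OENr4a3. The groups overlapped and the fold change was near 0 (log2 fold change -0.01, 95% interval -0.401 to 0.388). Endothelial markers as a list held 59.2 and 63.3 CPM in OECtrl and 48.0 and 53.2 CPM in OENr4a3. Of the 8, 0 were higher and 2 lower (Emcn and Egfl7), beside 12.0% and 11.0% of all tested genes. Pcdh12, also named VE-cadherin-2, was scarce and rose from 10 and 3 reads in the OECtrl libraries to 34 and 24 (log2 fold change 1.91, adjusted p = 0.0402). It passed the filter through OENr4a3 alone. Without OECtrl replicate 2 it stood at 1.20 (adjusted p = 0.148). Its call also ended without OENr4a3 replicate 1 (0.254) or 2 (0.0604), in DESeq2 (0.112) and with no filter on low counts (0.0789). The part of endothelial cells in these values was not tested.

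The other tested cadherins were low and none passed. Cdh6, K-cadherin, measured 1.38 and 1.08 CPM in OECtrl and 2.31 and 2.67 CPM in OENr4a3 (log2 fold change 1.02 with 95% bounds of 0.27 and 1.77, adjusted p = 0.0535). It passed with the filter of 1 CPM in 2 libraries (0.0478), with a replicate block (0.0461) and without OECtrl replicate 1 (0.0328), and not with the length trend removed (0.79, adjusted p = 0.125). Cdh23, a cadherin of the tip links of hair cells, stood at 2.02 ± 0.571 and 0.968 ± 0.189 CPM (log2 fold change -1.04, adjusted p = 0.0851) and passed as lower with the length trend removed (-1.48, adjusted p = 0.0223). Cdh10 (1.46 and 1.94 CPM) and Cdh24 (1.871 and 1.302 CPM), both type II cadherins, and Cdh19 (0.655 and 0.636 CPM), which marks Schwann cell precursors, had intervals that included 0. The remaining 13 cadherins were below the filter, with at most 6 reads in a library. Cdh15, the cadherin of myoblasts, Cdh16, of kidney tubules, and Cdh22 had 0 reads, and Cdh17, of the intestine, had 3, 1, 2 and 1.

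**Figure D1:**
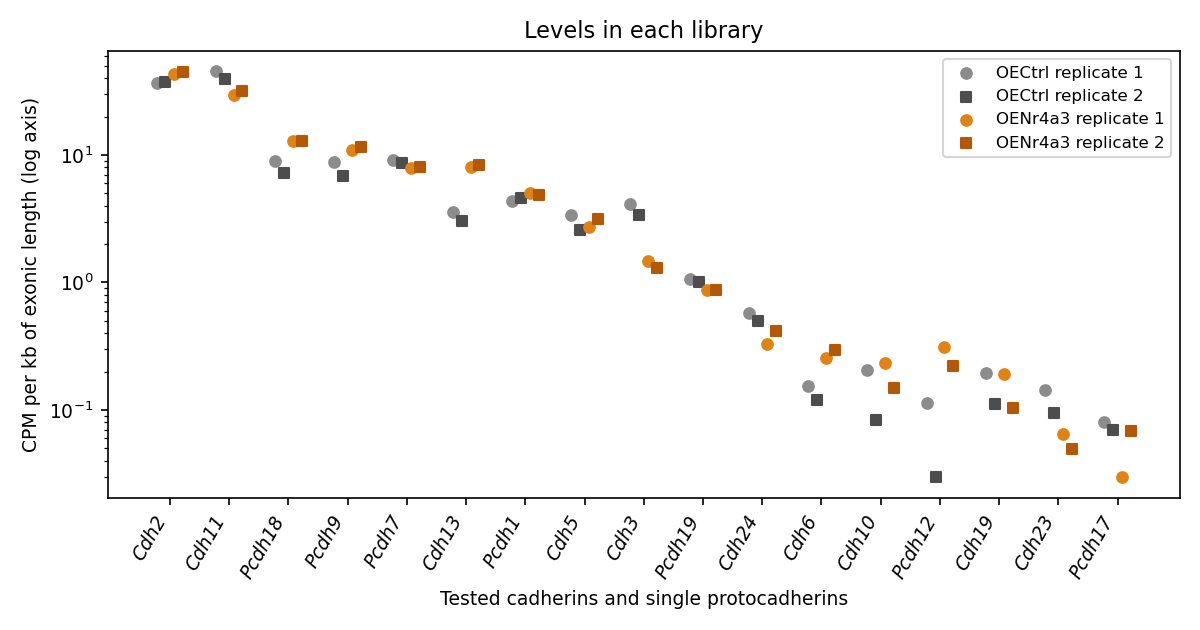
Levels of the 17 tested cadherins and single protocadherins in each of the 4 libraries, as CPM per kilobase of exonic length on a log axis; grey points are OECtrl, orange points OENr4a3, and circles and squares are replicates 1 and 2. Cdh2 and Cdh11 are the highest, Cdh11 and Cdh3 are lower in both OENr4a3 libraries, and Cdh13, Pcdh18 and Pcdh9 are higher in both.

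Of the 11 single protocadherins, 7 were tested, 3 rose (Pcdh18, Pcdh9 and Pcdh12) and none fell. Over all tested genes 12.0% were called higher and 11.0% lower. With the length trend removed 3 of the 7 rose and 2 fell, beside 10.1% and 10.2%. Pcdh18 (ENSMUSG00000037892), a delta protocadherin that binds the adaptor Dab1 in mouse, measured 48.5 and 38.6 CPM in OECtrl and 69.0 and 68.9 CPM in OENr4a3. The OENr4a3 libraries were nearly equal and both above OECtrl (log2 fold change 0.66 ± 0.128 SE, adjusted p = 0.00895), and the call held in all 12 alternative fits. Pcdh9 (ENSMUSG00000055421), another delta protocadherin, measured 60.2 and 46.7 CPM in OECtrl and 74.5 and 78.2 CPM in OENr4a3 (0.52 ± 0.133 SE, adjusted p = 0.0247). Its groups did not overlap either, and it missed the threshold when OENr4a3 replicate 1 (0.105) or 2 (0.176) was left out and with no filter on low counts (0.0541). In GRCm38 Pcdh18 lies at chr3:49743296-49757325 and Pcdh9 at chr14:93013410-93890679, both on the minus strand.

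Pcdh7, which inhibits the phosphatase PP2A through the adaptor protein SET in lung cancer cells, did not pass the test. It measured 97.6 and 92.3 CPM in OECtrl and 83.7 and 85.3 CPM in OENr4a3 (log2 fold change -0.17, whose 95% bounds were -0.394 and 0.0583, adjusted p = 0.247). Pcdh7 is long, with 10604 exonic bases, and passed as lower once the length trend was removed (-0.46, adjusted p = 0.0045), and also without OECtrl replicate 2 (-0.21, 0.0404). Pcdh19, whose human counterpart is mutated in a form of epilepsy, did likewise, at -0.24 (adjusted p = 0.283) and, with the trend removed, -0.52 (0.0324). Pcdh1, of airway epithelium, measured 39.1 ± 1.51 and 43.1 ± 1.14 CPM in the groups (its log2 fold change of 0.14 had bounds of -0.107 and 0.387), and its sign turned with the trend removed (-0.09). Pcdh17 stood at 0.968 and 0.638 CPM (-0.59, adjusted p = 0.43). Of the 4 below the filter (Pcdh8, Pcdh10, Pcdh15 and Pcdh20), Pcdh20 held the most reads, 4 and 16 in OECtrl and 8 and 9 in OENr4a3.

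In the gamma cluster all 22 genes had a log2 fold change above 0, from 0.27 to 3.22 (Pcdhga10) with a median of 0.94. Among all tested genes 49.4% had a log2 fold change above 0. Of the 22, 11 rose, none fell and 11 did not pass, beside 12.0% of all tested genes called higher and 11.0% lower. With the length trend removed 10 of the 22 rose, beside 10.1%. The genes share a locus and constant exons, so they are not independent of each other. Of the 22, 3 (Pcdhga10, Pcdhgb1 and Pcdhgb8) passed the filter through OENr4a3 alone, and all 3 are among the 11 that rose. Because the constant exons belong to every gene, a gamma gene had a median of 4819 exonic bases in GENCODE M21 of which 2630 were its own. Pcdhga10 had 2 reads over both OECtrl libraries while Pcdhgc3 had 2343, so reads of the shared exons had not been credited to every gene. The length trend was nevertheless removed by full exonic length, shared exons included. Values of gamma genes with the trend removed therefore rest on a length that may not apply to their counts.

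Summed over the cluster, gamma protocadherins measured 156.7 and 98.6 CPM in OECtrl and 229.4 and 235.8 CPM in OENr4a3. The OECtrl libraries differed from each other more than the OENr4a3 libraries did, and both lay below them, with means of 127.6 ± 41.1 and 232.6 ± 4.54 CPM, a ratio of 1.82. Pcdhgc3 held 59.8% and 60.1% of the gamma reads in OECtrl and 61.1% and 61.6% in OENr4a3, so its share differed little while the sum differed. Without Pcdhgc3 the other 21 genes summed to 63.0 and 39.4 CPM in OECtrl and 89.2 and 90.5 CPM in OENr4a3, a ratio of 1.75.

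**Figure D2:**
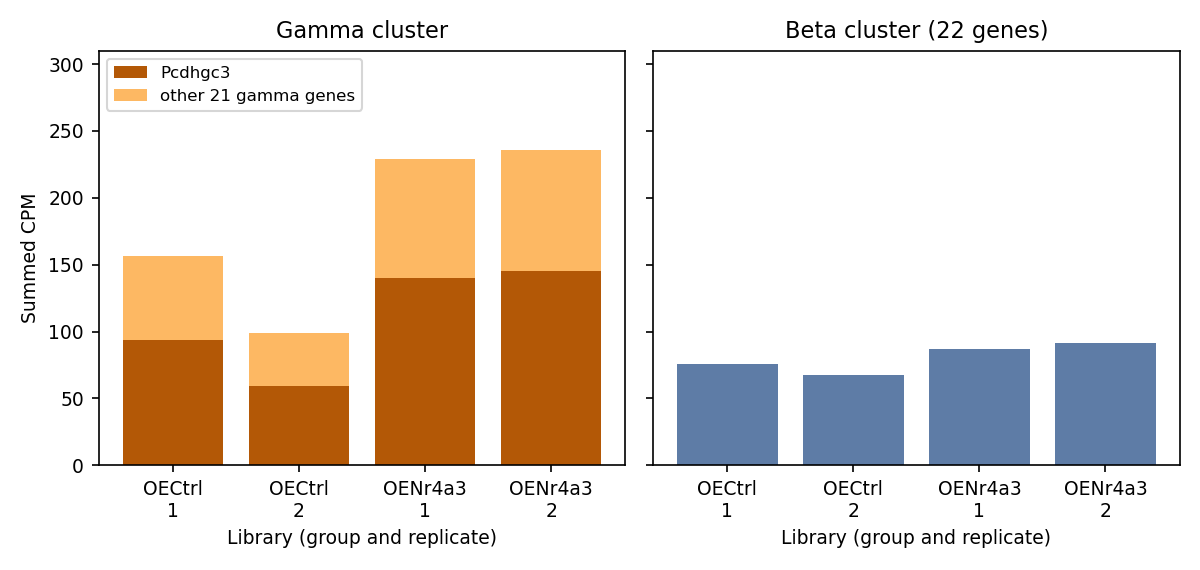
Summed CPM of the gamma cluster (left, Pcdhgc3 dark and the other 21 genes light) and of the beta cluster (right) in each library. The gamma sum is 156.7 and 98.6 CPM in OECtrl and 229.4 and 235.8 CPM in OENr4a3, and Pcdhgc3 takes a similar share in each library; the beta sum is 75.6 and 67.6 CPM against 86.9 and 91.6 CPM.

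Pcdhgc3 (ENSMUSG00000102918), a C-type gene that is expressed more widely than the other isoforms, ranked 3 of the 92 genes per kilobase of full exonic length in both groups. Per kilobase of its own, unshared exons it stood at 22.6 CPM in OECtrl and 42.2 in OENr4a3, and the latter lies between Cdh2 (44.0) and Cdh11 (30.6), which share no exonic base on their strand. It measured 93.6 and 59.2 CPM in OECtrl and 140.2 and 145.3 CPM in OENr4a3 (log2 fold change 0.90 ± 0.18 SE, adjusted p = 0.0102). Both OENr4a3 libraries were higher and the call held in all 12 alternative fits, but the size turned on OECtrl, at 1.27 without replicate 1 and 0.61 without replicate 2. Of the other C-type genes, Pcdhgc4 rose from 1.20 ± 0.168 to 2.77 ± 0.0978 CPM (1.21, adjusted p = 0.0272). That call ended without OECtrl replicate 2 (0.0695), without OENr4a3 replicate 1 (0.134) or 2 (0.172) and in DESeq2 (0.127). Pcdhgc5, the last gene of the cluster, measured 13.0 and 6.64 CPM in OECtrl and 10.1 and 13.4 CPM in OENr4a3. These overlapped (0.27, adjusted p = 0.497); without OECtrl replicate 1 the gene passed (0.83, 0.00961), and without replicate 2 its sign turned (-0.15).

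Of the 12 A-type gamma genes, 7 rose, beside 12.0% of all tested genes called higher, with a median log2 fold change of 1.03 over the 12. Among the 7, Pcdhga10 passed the filter through OENr4a3 alone. It lay below the cutoff in both OECtrl libraries, so it could enter the test only by being higher in OENr4a3. Pcdhga1, the first gene of the cluster, measured 4.01 and 2.63 CPM in OECtrl and 7.88 and 8.46 CPM in OENr4a3 (1.31 ± 0.233 SE, adjusted p = 0.00665), and Pcdhga7, the most abundant A-type gene, 6.99 and 5.09 against 10.8 and 11.2 CPM (0.87 ± 0.191 SE, adjusted p = 0.0139). Neither gene's groups overlapped, and both calls held in all 12 alternative fits. Pcdhga11 rose from 1.10 ± 0.113 to 3.18 ± 0.251 CPM (1.54, adjusted p = 0.0114) and missed the threshold without OENr4a3 replicate 1 (0.0669). Pcdhga10 went from 2 and 0 reads to 13 and 11, a ratio of 10.3 (95% Clopper-Pearson counting interval 2.57 to 90.4), a difference that no longer passed without OECtrl replicate 2 (adjusted p = 0.135), without OENr4a3 replicate 2 (0.16) or with no filter on low counts (0.0939). Pcdhga2, Pcdhga5 and Pcdhga12 rose by log2 fold changes of 1.06, 0.99 and 1.14, and each call was lost without OECtrl replicate 2, without either OENr4a3 library, in DESeq2 and without the filter on low counts. In those fits the adjusted p ran from 0.0583 to 0.265, and Pcdhga12 also missed it with the length trend removed (0.063). Pcdhga3, Pcdhga4, Pcdhga6, Pcdhga8 and Pcdhga9 did not pass, at log2 fold changes of 0.57 to 1.06, and Pcdhga8 turned to -0.10 without OECtrl replicate 2.

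Of the 7 B-type gamma genes, 2 rose, beside 12.0% of all tested genes called higher, with a median of 0.66 over the 7. Pcdhgb1 rose by a log2 fold change of 1.77, from 0.927 ± 0.549 to 3.10 ± 0.526 CPM (adjusted p = 0.0178), and was lost without OENr4a3 replicate 1 (0.0666). Pcdhgb8 went from 2 and 4 reads to 19 and 17 (2.33, adjusted p = 0.024), and was lost without OENr4a3 replicate 1 (0.215) or 2 (0.161) and without the filter on low counts (0.0516). Pcdhgb2, Pcdhgb4, Pcdhgb5, Pcdhgb6 and Pcdhgb7 did not pass, at 0.56 to 0.80, and the largest of these was Pcdhgb6. Both genes that rose had passed the filter through OENr4a3 alone. Pcdhgb8 lay below the cutoff in both OECtrl libraries (0.138 and 0.239 CPM), so it could enter the test only by being higher in OENr4a3. Pcdhgb1 reached the cutoff in OECtrl replicate 1 (1.315 CPM) but not in OECtrl replicate 2 (0.538 CPM). Pcdhgb2, at 5.41 ± 1.65 and 8.03 ± 0.292 CPM the most abundant of the B type, missed the threshold (0.58, adjusted p = 0.089) but passed without OECtrl replicate 1 (0.00557) and with a replicate block (0.0376).

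The count of gamma genes called moved with the libraries used, as did the share of all genes called. It was 20 without OECtrl replicate 1, where 45.2% of all tested genes were called, and 6 without OECtrl replicate 2, where 23.5% were. It was 3 without OENr4a3 replicate 1 (8.32% of all) and 5 without OENr4a3 replicate 2 (7.70% of all), and 10 of the 22 rose with the length trend removed, where all 22 kept a log2 fold change above 0.

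**Figure D3:**
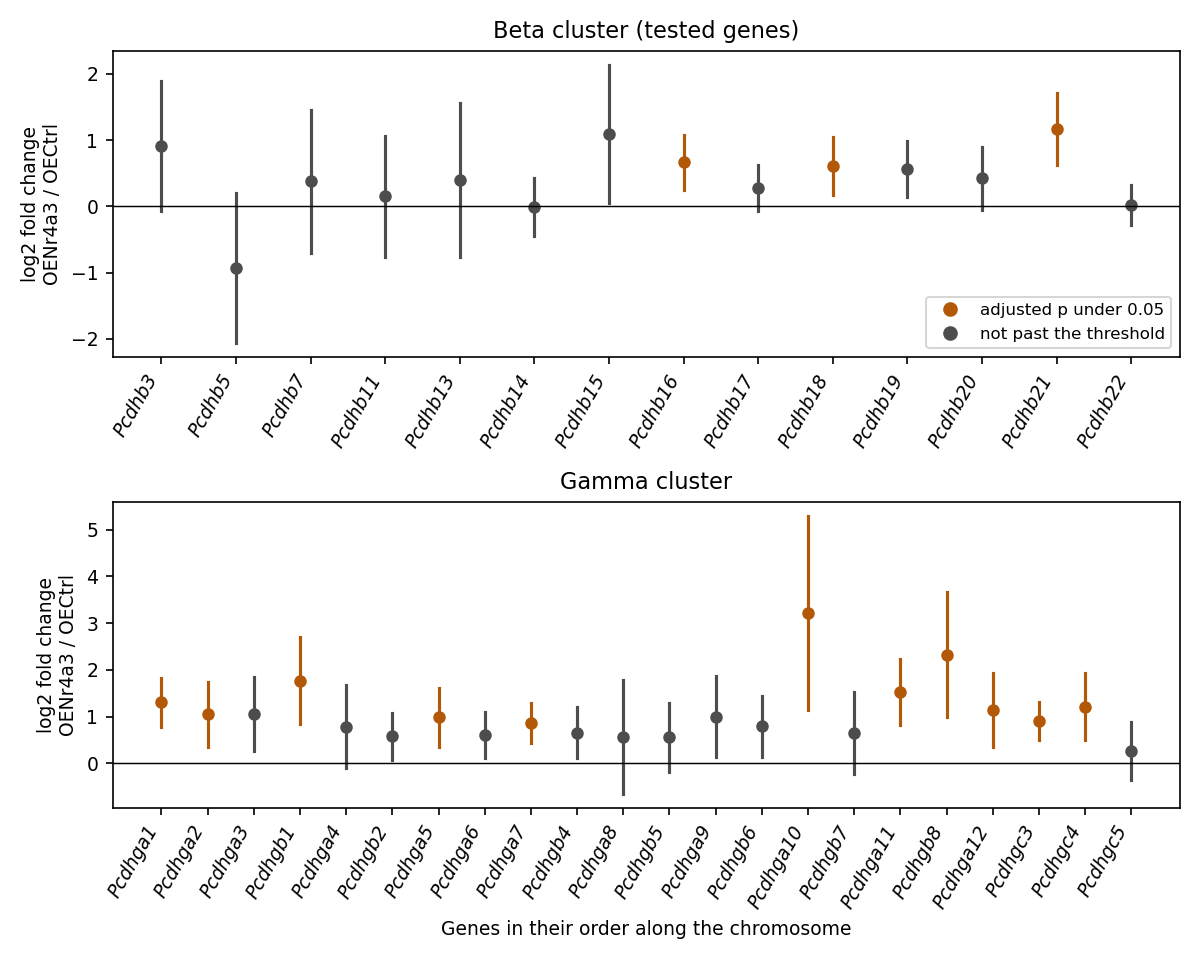
Log2 fold change of OENr4a3 over OECtrl for the 14 tested beta genes (top) and the 22 gamma genes (bottom), in their order along the chromosome; bars are 95% intervals of the edgeR fit, and orange marks an adjusted p under 0.05. All 22 gamma genes lie above 0, and the beta genes lie between -0.93 and 1.17 with Pcdhb16, Pcdhb18 and Pcdhb21 called.

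In the beta cluster, whose genes are single exons with no shared constant part, 14 of 22 were tested, 3 rose and none fell, with a median log2 fold change of 0.41. The 3 rises stand beside 12.0% of all tested genes called higher. With the length trend removed 2 of the 14 rose, beside 10.1%. Pcdhb21 rose from 2.42 and 2.21 CPM in OECtrl to 4.74 and 5.68 CPM in OENr4a3 (1.17 ± 0.244 SE, adjusted p = 0.0121). Its groups did not overlap, and 1 of 12 alternative fits, that without OENr4a3 replicate 2, did not call it (0.0819). Pcdhb16 (0.67, adjusted p = 0.0317) and Pcdhb18 (0.61, adjusted p = 0.0491) also rose. The call of Pcdhb16 was lost in 5 and that of Pcdhb18 in 8 of 12 alternative fits, among them those without OENr4a3 replicate 1 (0.103 and 0.203) and replicate 2 (0.18 and 0.241), DESeq2 (0.129 and 0.212) and no filter on low counts (0.0583 and 0.0832). Pcdhb16 was also lost without OECtrl replicate 2 (0.0804) and Pcdhb18 without OECtrl replicate 1 (0.0741), in limma-voom (0.0531) and with the length trend removed (0.0654, and 0.063 with the replicate block).

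The most abundant beta gene, Pcdhb22, measured 25.3 and 21.3 CPM in OECtrl and 23.5 and 23.6 CPM in OENr4a3. These ranges overlapped, and the 95% interval of its log2 fold change ran from -0.281 to 0.32. Pcdhb17, the second, stood at 13.3 ± 1.77 and 16.0 ± 1.25 CPM (0.27, adjusted p = 0.217, and 0.0418 without OECtrl replicate 1), and Pcdhb14, the third in OECtrl but below Pcdhb16, Pcdhb18 and Pcdhb19 in OENr4a3, at 6.43 ± 0.383 and 6.42 ± 0.985 CPM, with a log2 fold change within 0.01 of 0 whose sign differed between fits. Pcdhb19 (0.56, adjusted p = 0.0564, and 0.0488 with a replicate block) and Pcdhb20 (0.42, adjusted p = 0.165) did not pass. Pcdhb3, Pcdhb5, Pcdhb7, Pcdhb11, Pcdhb13 and Pcdhb15 averaged under 2 CPM in each group and ran from -0.93 (Pcdhb5) to 1.10 (Pcdhb15). The 8 untested beta genes had at most 12 reads in a library; Pcdhb2 and Pcdhb4 held the most, and Pcdhb1 had none. The beta sum was 75.6 and 67.6 CPM in OECtrl and 86.9 and 91.6 CPM in OENr4a3, a ratio of 1.25.

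The alpha cluster was nearly silent. Over its 14 rows the OECtrl libraries summed to 27 and 10 reads and the OENr4a3 libraries to 43 and 40, and 7 had no read in any library. Pcdhac2, a C-type gene (5 and 2 reads in the controls, 17 and 12 with Nr4a3), and 1 of the Pcdha11 rows (10 and 4, 15 and 14) were tested and did not pass, with adjusted p of 0.0748 and 0.334 (0.0404 for Pcdhac2 without OECtrl replicate 1), and both passed the filter through OENr4a3 alone.

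Genes listed as regulators of the clustered protocadherins, chiefly CTCF, cohesin and DNA methylation factors, were all tested: 3 of 15 rose and none fell, with a median log2 fold change of 0.28, which became 0.04 with the length trend removed. The 3 rises stand beside 12.0% of all tested genes called higher. With the trend removed 1 of the 15 rose, beside 10.1%. The insulator factor Ctcf measured 59.7 and 63.2 CPM (0.08, adjusted p = 0.646) and the cohesin subunit Rad21 111.2 and 115.5 CPM (0.06, adjusted p = 0.734). Stag2, a cohesin subunit with the highest CPM of the list, measured 186.2 and 213.7 CPM (0.20, adjusted p = 0.152). Without OECtrl replicate 1 or 2 its log2 fold change was 0.22 or 0.18. Per kilobase of exonic length it stood below Rad21 in OECtrl (22.5 against 26.3). Nipbl, the cohesin loader, rose from 91.9 ± 19.3 to 141.9 ± 1.39 CPM (0.63, adjusted p = 0.0144), Pds5b, a cohesin cofactor, by 0.52 (0.0177) and the DNA methyltransferase Dnmt3a by 0.48 (0.0202). The calls of Pds5b (0.0668) and Dnmt3a (0.783) ended with the length trend removed. They were also lost without OENr4a3 replicate 1 (0.101 and 0.182) or 2 (0.167 and 0.17), as was that of Nipbl without OENr4a3 replicate 2 (0.0579).

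The core catenins that carry cadherin adhesion did not pass the test. Ctnnb1, beta-catenin, the most abundant, measured 546.4 and 603.9 CPM (log2 fold change 0.14, adjusted p = 0.263, and 0.009 without OECtrl replicate 1), Ctnna1, alpha-catenin, 424.4 and 498.7 CPM (0.23, adjusted p = 0.0874), Ctnnd1, p120-catenin, 79.4 and 78.3 CPM (-0.02, adjusted p = 0.903) and Jup, plakoglobin, 184 and 228.2 CPM (0.31, adjusted p = 0.0912). Of 16 listed catenins and junction partners, 15 were matched, 14 tested, 2 rose and none fell (median 0.11, and -0.02 with the length trend removed). Over all tested genes 12.0% were called higher and 11.0% lower. With the trend removed 1 of the 14 rose and 2 fell, beside 10.1% and 10.2% of all tested genes. Tjp1, the scaffold ZO-1, rose from 73.3 ± 15.3 to 117 ± 3.49 CPM (0.68, adjusted p = 0.0117) and kept its call in all 12 alternative fits. Ctnnd2, delta-catenin, rose from 1.29 ± 0.548 to 3.10 ± 0.448 CPM (1.24, adjusted p = 0.035), and 6 of 12 alternative fits did not call it, among them DESeq2 (0.107), no filter on low counts (0.0633), the fit without OECtrl replicate 1 (0.0641), those without OENr4a3 replicate 1 (0.193) or 2 (0.0542) and that with the length trend removed (0.0968).

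Of 18 other cadherin superfamily genes, 11 were tested, 6 rose and none fell, with a median log2 fold change of 0.83, or 0.44 with the length trend removed, where 6 still rose. The share of all tested genes called higher was 12.0%, and 10.1% with the trend removed. Fat4 and Dchs1, a receptor and ligand pair of planar polarity and Hippo signalling, both rose. Fat4 measured 14.3 and 8.50 CPM in OECtrl and 41.8 and 48.7 CPM in OENr4a3 (2.00 ± 0.209 SE, adjusted p = 0.000432), and Dchs1 6.44 and 3.95 CPM against 22.4 and 22.03 CPM (2.11 ± 0.206 SE, adjusted p = 0.000318). Neither pair of groups overlapped, and both calls held in all 12 alternative fits.

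Fat1, the most abundant superfamily gene listed, measured 1171 and 731.5 CPM in OECtrl and 1682 and 1703 CPM in OENr4a3 (0.83, adjusted p = 0.0129), a call that DESeq2 did not make (0.0634). The calsyntenins Clstn1 (0.40, adjusted p = 0.0177) and Clstn2 (1.03, adjusted p = 0.0283) and the photoreceptor cadherin Cdhr1 (1.95, adjusted p = 0.0372) rose too, the last having passed the filter through OENr4a3 alone. Clstn1 was lost without OENr4a3 replicate 1 (0.308) or 2 (0.225), Clstn2 without OECtrl replicate 2 (0.0815) or OENr4a3 replicate 2 (0.192) and in DESeq2 (0.103), and Cdhr1, with 10 reads in OECtrl and 46 in OENr4a3, without OECtrl replicate 2 (0.149) or OENr4a3 replicate 1 (0.313) or 2 (0.107), in DESeq2 (0.141) and with no filter on low counts (0.0728).

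Desmosomal cadherins were almost absent. The desmosome count that follows stands beside 12.0% of all tested genes called higher. Of 13 desmosome genes, 4 were tested and 1, the plaque protein desmoplakin (Dsp), rose by a log2 fold change of 1.02, from 8.03 ± 2.05 to 16.2 ± 2.58 CPM (adjusted p = 0.00994; held in all 12 alternative fits), while the desmogleins and desmocollins were below the filter except Dsc2 (0.10, adjusted p = 0.896). Perp, the most abundant of the list, measured 23.2 and 22.5 CPM (-0.05, adjusted p = 0.86), and passed as lower without OECtrl replicate 1 (-0.30, 0.0461). Of 8 proteases that cut cadherins or their binders, 1 rose, a share near the 12.0% of all genes called higher: Mmp2, from 492.2 ± 18.7 to 625.8 ± 31.2 CPM (0.35, adjusted p = 0.028), a call lost without OENr4a3 replicate 1 (0.247) or 2 (0.434). Adam10, which sheds N-cadherin, measured 290.9 and 299 CPM (0.04, adjusted p = 0.784), and Mmp14, the most abundant, 1233 and 1284 CPM (0.06, adjusted p = 0.644).

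Of 7 nectins and other adhesion molecules, Ncam1 rose by a log2 fold change of 0.89, from 127.6 ± 5.58 to 236.0 ± 7.88 CPM (adjusted p = 0.000619). The call held in all 12 alternative fits. Ncam1 had the highest CPM of the 7, but per kilobase of exonic length Nectin2 was higher in OECtrl (20.6 against 14.7). Nectin2, a nectin of adherens junctions, fell from 72.1 ± 4.02 to 47.5 ± 0.252 CPM (-0.60, adjusted p = 0.00632), which was lost without OENr4a3 replicate 1 (0.0976) or 2 (0.105). The other 5 did not pass. This 1 rise and 1 fall stand beside 12.0% of all tested genes called higher and 11.0% lower. With the length trend removed 1 of the 7 rose and 3 fell, beside 10.1% and 10.2%.

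**Figure D4:**
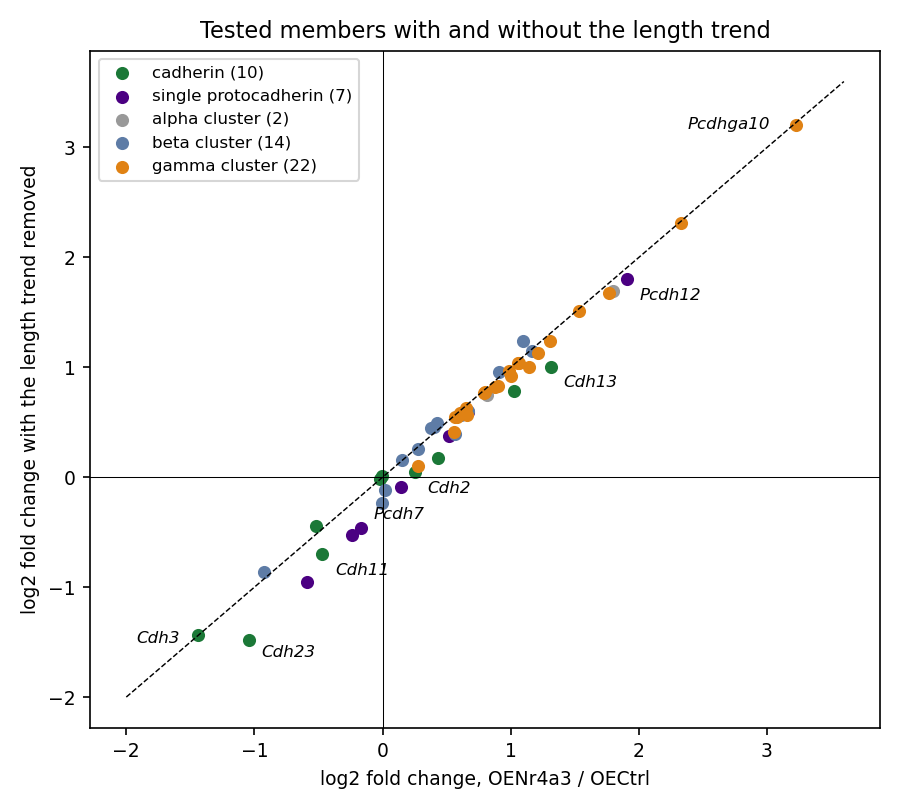
Log2 fold change of the 55 tested genes (x axis) against the same with each library's trend with exonic length removed (y axis), coloured by family; the dashed line marks equal values. The gamma genes lie close to the line, at a median of 0.94 and 0.87, while long genes such as Cdh11, Cdh13, Cdh23 and Pcdh7 lie below it. Full exonic length was used, which for gamma genes includes the shared constant exons.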

How the data were processed

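RNA was extracted with TRIzol, ribosomal RNA was depleted and stranded paired-end libraries were sequenced, per the labels' protocols; the labels call the molecule polyA RNA. The authors deposited whole-number counts per Ensembl gene with exonic lengths, per the file headers. Trimmomatic 0.36, Subread 1.5.1, featureCounts, SAMtools and mm10 are named in the submitters' processing notes; no source used here gives the aligner, annotation release or strand setting. The 4 per-sample columns of FPKM were not used. The table's start and end equalled GENCODE M21 for 1494 of 52083 shared identifiers, so coordinates are from M21 by identifier.

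Counts were tested in R 4.3.3 with edgeR 4.0.16 (filterByExpr, TMM, quasi-likelihood F-test, two-sided, Benjamini-Hochberg over 15029 genes); alternatives used limma 3.58.1, DESeq2 1.42.0, its size factors, no filter or 1 CPM in 2 libraries, each library left out, a replicate block, and removal of each library's trend of log2 CPM (prior count 2) with exonic length (lowess, span 0.3), alone or with the block. Standard errors were computed as log2 fold change divided by sqrt(F). Levels are CPM on TMM-scaled sizes. On simulated counts of this comparison (14728 genes), the share called was 22.7% of 75 genes at 1.5-fold, 72.4% of 58 at 2-fold and 96.5% of 57 at 4-fold, and 3.39% of 118 calls were false. The simulation gave both groups the same spread per gene, held no length trend and changed far fewer genes than were called here. Its shares therefore hold for those settings and are not error rates of the deposited data. Replicates differed beyond sampling noise (chi-square per degree of freedom 15.5 in OECtrl and 2.55 in OENr4a3), so all 4 libraries were kept. Named genes were Nr4a3, every called member, every tested member of at least 1 CPM, and fixed marker cadherins. Also named were the called genes of 7 partner lists and the gene of highest mean CPM in each. Others are named after their values were seen. Members and lists were chosen with earlier results of these data known. A planned protein comparison was not run, as no protein sequences were used here. Clustered genes overlap, so their counts are uncertain.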

Additional observations from a re-analysis of the deposited data

How the results depend on the processing

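Of the 18 members called higher, 2 called lower and 11 gamma genes called higher, counts within 1.5 times came from DESeq2's size factors, limma-voom, the filter of 1 CPM and the replicate block. The count of members higher was 9 in DESeq2 and 9 with no filter on low counts, and ran from 6 to 31 with 1 library left out (6 without OENr4a3 replicate 1, 31 without OECtrl replicate 1). The share of all genes called was 23.0% of 15029 genes in the main fit, 9.32% in DESeq2 and 6.85% with no filter. The DESeq2 and no-filter shares are over 27419 genes with a read, so they are not on the same base as 23.0%. The shares with 1 library left out are given with the gamma counts above. Members lower numbered 5 with the length trend removed, 5 with that and the replicate block, and 1 to 3 with 1 library left out. Gamma genes higher numbered 5 in DESeq2, 6 with no filter, and 3 to 20 with 1 library left out. Of the 20 member calls, 11 remained in DESeq2 (2 had no adjusted p), 11 with no filter, 18 with the length trend removed, 19 without OECtrl replicate 1, 13 without OECtrl replicate 2, 7 without OENr4a3 replicate 1 and 8 without OENr4a3 replicate 2. The cause of these differences was not tested.

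Replicate numbers did not pair the libraries: the labels state no pairing, and the correlation of deviations between same-numbered libraries was -0.0776. With the replicate block 22 members rose, 13 of them gamma genes, and all 20 calls remained.

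No called member changed sign in the alternatives run. With the length trend removed the sign turned for some uncalled members and list genes of highest mean CPM. Without and with the replicate block, the log2 fold change was then 0.0086 and 0.0128 for Cdh5, -0.0907 and -0.0873 for Pcdh1, and -0.1178 and -0.1168 for Pcdhb22. It was -0.0485 and -0.0485 for Mmp14, 0.1978 and 0.2118 for Perp, and -0.0115 and -0.0112 for Stag2. Other uncalled list genes turned too with the trend removed, among them Pds5a (0.24 to -0.25) and Smchd1 (0.35 to -0.15). Cdh5 also turned in limma-voom (0.0066) and with no filter (0.0055), and Pcdhb14 with no filter (0.0076) and with the filter of 1 CPM (0.0005). With 1 library left out the log2 fold change ran from -0.0999 to 1.2059 for Cdh10, -0.1938 to 0.2002 for Cdh5, -0.1583 to 0.1559 for Pcdhb14, -0.524 to 0.4091 for Cdh19, -0.2077 to 0.4624 for Pcdhb11, -0.1011 to 0.1484 for Pcdhb22, -0.1454 to 0.8276 for Pcdhgc5, -0.1001 to 1.6874 for Pcdhga8 and -0.2997 to 0.2677 for Perp. A group left with 1 library was assumed to vary like the other. Depth limits the alpha genes and the scarce beta and gamma genes, which rest on a few reads.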
